A study of Mus musculus with 12 samples.

Results

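The globin genes of the mouse were described here in single cells of the neonatal liver: the adult alpha genes Hba-a1 and Hba-a2, the adult beta genes Hbb-bs and Hbb-bt, the embryonic alpha-like gene Hba-x and the embryonic beta-like genes Hbb-y and Hbb-bh1. These 7 genes were chosen by name and matched by symbol among the 32285 genes of the count tables. Livers of C57BL/6J pups of both sexes were digested and profiled at postnatal day 11, with 1 droplet library per mouse and 6 mice per group. Anemic pups had been bled from the facial vein at 20 µL per g of body weight on postnatal days 2, 4, 6, 8 and 10 (phlebotomy-induced anemia), and control pups had a daily needle stick without blood loss. Pups of each litter had been assigned to the groups at random, and all libraries carried the same batch date. No engineered allele was named for either group. The model is one of repeated blood loss, and no lysis of red cells was mentioned among the steps of cell isolation.

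Hemoglobin is a tetramer of 2 alpha-like and 2 beta-like chains, each holding a heme. The alpha-like genes lie in 1 cluster and the beta-like genes in another, and within each cluster the genes are used in turn. In the mouse, primitive red cells of the yolk sac make Hba-x, Hbb-y and Hbb-bh1 chains, and definitive red cells of the fetal liver and later the bone marrow and spleen make the adult chains. The liver still makes red cells in the first days after birth. A maturing erythroblast loses most other RNA while globin mRNA stays, so that reticulocytes hold little else.

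In the GRCm38 annotation the beta-like genes lie on the minus strand of chromosome 7: Hbb-bt at chr7:103812524-103813996, Hbb-bs at chr7:103826534-103828096, Hbb-bh1 at chr7:103841637-103843164 and Hbb-y at chr7:103851749-103853216. The alpha-like genes lie on the plus strand of chromosome 11: Hba-x at chr11:32276400-32278116, Hba-a1 at chr11:32283511-32284465 and Hba-a2 at chr11:32296489-32297298. The 120 bases before the RefSeq start of each gene (GRCm38.p6) are shown because the adult and embryonic genes are read side by side below. RefSeq starts differ from those of the spans above, which are from GENCODE. The stretches of Hba-a1, Hba-x and Hbb-bs thus lie within these spans. Capitals mark, on either strand, the letters of 4 classical elements: CACCC for the CACC box that factors such as Klf1 bind, then CCAAT for the box of that name, GATA for the site of Gata1, and TATAA for the box that places the start.
Hba-a1, chr11:32283552-32283671, plus strand: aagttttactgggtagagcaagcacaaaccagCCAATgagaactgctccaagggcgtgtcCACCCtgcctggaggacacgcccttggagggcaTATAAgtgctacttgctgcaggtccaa
Hba-a2, chr11:32296372-32296491, plus strand: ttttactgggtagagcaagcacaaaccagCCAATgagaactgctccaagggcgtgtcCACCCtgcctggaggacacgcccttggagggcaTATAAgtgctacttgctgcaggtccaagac
Hbb-bs, chr7:103827929-103828048, minus strand: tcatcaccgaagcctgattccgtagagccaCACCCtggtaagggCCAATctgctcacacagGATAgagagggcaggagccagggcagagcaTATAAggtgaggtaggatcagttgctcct
Hbb-bt, chr7:103813924-103814043, minus strand: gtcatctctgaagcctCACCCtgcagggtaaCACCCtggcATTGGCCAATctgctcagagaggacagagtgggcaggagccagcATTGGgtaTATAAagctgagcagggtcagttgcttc
Hba-x, chr11:32276480-32276599, plus strand: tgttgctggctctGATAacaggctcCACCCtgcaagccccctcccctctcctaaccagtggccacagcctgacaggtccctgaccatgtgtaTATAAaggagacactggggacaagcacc
Hbb-y, chr7:103853208-103853327, minus strand: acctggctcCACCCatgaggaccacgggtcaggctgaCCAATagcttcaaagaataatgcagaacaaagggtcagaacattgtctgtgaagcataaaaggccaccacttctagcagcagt
Hbb-bh1 is named only. Of 32851 RefSeq promoters cut to the same length, CACCC was held by 31.7%, the CCAAT letters by 21.3%, those of GATA by 29.5% and those of the TATAA box by 11.8%, and all 4 by 0.207%, as in the Hbb-bs promoter. Matches may overlap each other. The Hba-a1 and Hba-a2 promoters were identical over 117 of 117 bases at a shift of 3 bases, and the Hbb-bs and Hbb-bt promoters over 88 of 119 bases (73.9%). A match of letters is a description of the sequence and was not tested for binding.

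The copies were also alike where the reads fell. Of the 251 50-base windows in the last 300 bases of the Hba-a1 transcript, 201 (80.1%) were found in Hba-a2. In the opposite direction, 185 of 251 windows (73.7%) of Hba-a2 were found in Hba-a1. Between Hbb-bt and Hbb-bs 91 windows (36.3%) were shared, and the adult genes shared 0 with the embryonic genes. The split of counts between Hba-a1 and Hba-a2, and in part between Hbb-bs and Hbb-bt, is therefore uncertain, and the sums adult alpha and adult beta are given beside the single genes. How reads that match both copies of a pair were counted was not tested. More windows were shared in the alpha pair than in the beta pair, so the level of alpha against beta is uncertain as well.

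The 12 libraries held 206146 cells after filtering, 14184 to 18153 per control mouse and 15707 to 21186 per anemic mouse, with 45751640 to 65278645 and 51834166 to 74344118 unique molecular identifiers (UMIs). A UMI counts 1 captured mRNA molecule, read at its 3′ end, so that levels of different genes needed no correction for length. Cells were clustered without any globin gene and named from markers that held no globin, and 29611 cells were erythroid-like. All 12 erythroid markers were detected in them, with Klf1, a factor that activates adult beta globin, at 11.0 to 85.1 CPM (UMIs per 1000000 UMIs of the class). Erythroid-like cells numbered 216 to 2380 per control mouse and 1641 to 5232 per anemic mouse. Control 3 stood apart with the fewest. Libraries shared 51 to 121 cell barcodes per pair, at most 0.694% of the smaller library.

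Adult globins made up most of the RNA of the erythroid-like class in every mouse but control 3 (43.4%), and embryonic globins almost none. Over all libraries Hbb-bs gave 25052694 UMIs, 59.5% of the 7 genes, followed by Hba-a1 with 9092959 (21.6%), Hba-a2 with 6299306 (14.96%) and Hbb-bt with 1663645 (3.95%). Hbb-y gave 62 UMIs, Hbb-bh1 40 and Hba-x 11. The adult genes alone, 4 of 7, passed the filter on low counts, which was a mean of 5 UMIs per mouse in the class. The order Hbb-bs, Hba-a1, Hba-a2, Hbb-bt held in all 12 mice, and the ranges of neighbouring adult genes in this order overlapped only for Hba-a1 and Hba-a2.

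Hbb-bs, the major adult beta chain of this strain, took 25.1% of erythroid-like UMIs in the lowest control mouse, 41.0% in the median and 45.5% in the highest. In anemic mice it took 39.7% in the lowest, 43.0% in the median and 49.6% in the highest. Hbb-bt, the neighbouring adult beta gene, took 1.80%, 2.51% and 2.85% in control and 2.64%, 2.87% and 2.92% in anemic mice. The groups overlapped for both beta genes, and control 3 was the lowest mouse in each. Hba-a1, an adult alpha gene, took 9.77%, 14.7% and 16.98% in control mice and 14.3%, 15.2% and 17.5% in anemic mice. Hba-a2, the other adult alpha gene, took 6.69%, 10.5% and 11.8% in control mice and 9.93%, 10.4% and 12.0% in anemic mice. Here too the groups overlapped and control 3 was lowest. The 7 genes together made up 65.2% ± 13.1 (SD, n = 6) of erythroid-like UMIs in control mice and 73.0% ± 5.94 (SD, n = 6) in anemic mice.

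**Figure D1:**
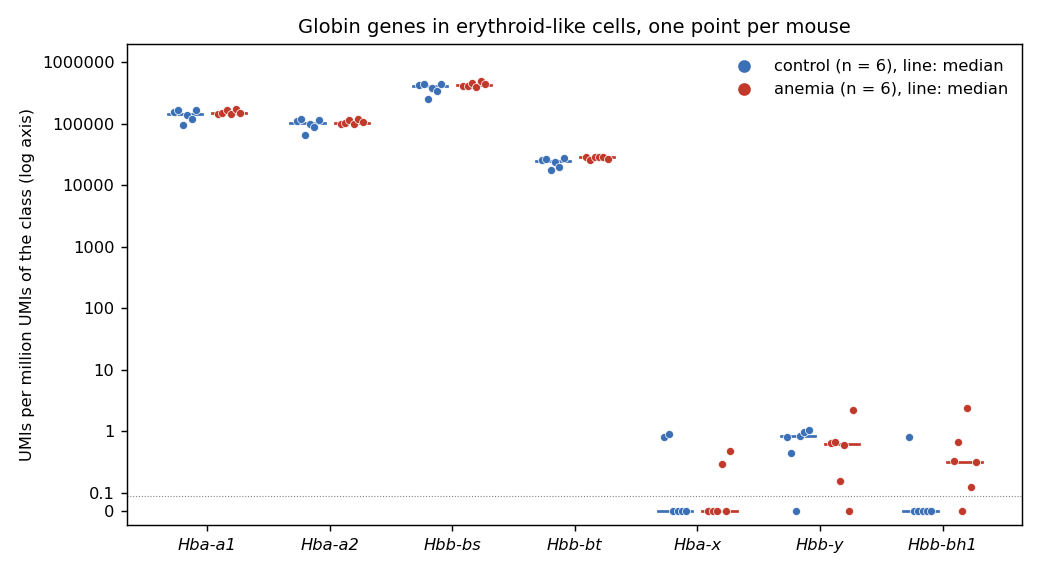
CPM of each of the 7 globin genes in the erythroid-like class on a log axis, with 1 point per mouse, control and anemia side by side. The adult genes sit orders of magnitude above Hbb-y, Hbb-bh1 and Hba-x, many of whose points are at 0.

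The embryonic genes were at or near 0 UMIs in most mice. Hbb-y, which codes for the embryonic epsilon-y chain, had 1, 1, 0, 1, 1 and 3 UMIs in the erythroid-like cells of the 6 control mice. In the 6 anemic mice it had 4, 2, 1, 6, 0 and 14 UMIs. The groups overlapped, and more erythroid-like UMIs were read in each anemic mouse than in any control mouse. Hbb-bh1, the embryonic beta-h1 chain, had 1 UMI in control 1 and 0 in the other 5 control mice, against 2, 2, 0, 24, 1 and 2 in anemic mice. Hba-x, the embryonic zeta chain, had 1, 2, 0, 0, 0 and 0 UMIs in control mice and 0, 0, 0, 3, 0 and 3 in anemic mice. Where 0 UMIs were read, counting error alone allows up to 3 UMIs per library. This limit corresponds to 1.03 to 9.45 CPM in control and 0.299 to 0.996 in anemic mice. A mouse with 0 UMIs may thus still hold a level up to its limit.

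Relative to the adult genes, Hbb-y had 1.59 ± 0.969 UMIs per 1000000 adult beta UMIs in control mice (SD, n = 6) and 1.56 ± 1.64 with anemia (SD, n = 6). The difference did not pass an exact two-sided Mann-Whitney test (adjusted p = 0.699 over 6 ratios). Hbb-bh1 had 0.289 ± 0.709 per 1000000 adult beta UMIs in control and 1.46 ± 2.10 in anemic mice, which did not pass either (exact adjusted p = 0.134). For Hba-x the values per 1000000 adult alpha UMIs were 1.03 ± 1.59 and 0.510 ± 0.812 (exact adjusted p = 0.699).

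Embryonic UMIs were gathered in few cells. In all libraries the 62 Hbb-y UMIs came from 30 cells, the 40 Hbb-bh1 UMIs from 10 cells and the 11 Hba-x UMIs from 8 cells. A single late-stage erythroid-like cell of anemia 4 held 23 Hbb-bh1 UMIs beside 1974 adult beta UMIs. A single cell of an unnamed cluster in control 5 held another 7 beside 854 adult beta UMIs. That cell had 63.2% globin and was not called a doublet. For Hbb-y, a single late-stage cell of anemia 6 held 11 UMIs beside 1319 adult beta UMIs. The largest Hbb-y count, 18 UMIs, was in a cell of anemia 5 that was called a doublet, lay in an unnamed cluster and held 6 adult beta UMIs. Of the 8 cells with Hba-x, 4 were called doublets. Without its top cell each gene had 44 (Hbb-y), 17 (Hbb-bh1) and 8 (Hba-x) UMIs in the 12 libraries.

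With every cell thinned to 500 UMIs, 4 of 29611 erythroid-like cells (0.0135%, exact 95% interval 0.00368% to 0.0346%) had Hbb-y, 6 (0.0203%, 0.00744% to 0.0441%) had Hbb-bh1 and 1 (0.00338%, 8.55e-05% to 0.0188%) had Hba-x. In B-like cells, which should lack the genes, 0 of 18633 cells had any of them, which allows a share of up to 0.0161% for cells with a UMI, not for cells that express the gene. Without thinning the cells were 21, 8 and 6, and the median cell held 892 to 1862 UMIs in the erythroid-like and 1220 to 1664 in the B-like class, over mice. All 3 thinned intervals included the limit of the B-like cells. Without thinning, the pooled Hbb-y share was 0.0709% (exact 95% interval 0.0439% to 0.108%), and no B-like cell had the gene. That interval lay above the limit, but like the thinned intervals it counts cells of all mice as independent. By mouse the share without thinning ran from 0% to 0.147% in control and from 0% to 0.145% in anemic mice. Depth per cell was also not made equal there, so a share above that of B-like cells is not shown. A difference of the thinned shares between groups did not pass the exact Mann-Whitney test (adjusted p = 1 for Hbb-y, 1 for Hba-x and 0.727 for Hbb-bh1).

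Whether globin RNA changed with anemia was asked with edgeR's quasi-likelihood test on the summed UMIs of each mouse. The test reads globins relative to the other RNA of the class, not as RNA per cell. Each SE given for edgeR was derived from its test, as the size of the fold change over the square root of the F statistic. In the whole erythroid-like class 0 of the 4 adult genes passed (adjusted p under 0.05), where 0.735% of all 10064 genes tested did. None had an unadjusted p under 0.05 in this fit, where 1206 of the 10064 genes did, and 0 passed in DESeq2 or limma voom. The log2 fold changes, anemia minus control, were 0.57 (SE 0.76, adjusted p = 0.819) for Hbb-bs, 0.60 (SE 0.46, adjusted p = 0.634) for Hbb-bt, 0.53 (SE 0.62, adjusted p = 0.788) for Hba-a1 and 0.49 (SE 0.58, adjusted p = 0.791) for Hba-a2. For adult alpha the value was 0.51 (SE 0.70, adjusted p = 0.824) and for adult beta 0.57 (SE 0.79, adjusted p = 0.826). The SEs fitted by DESeq2 for the 4 single genes were smaller, 0.38 to 0.41. Fitted without the composition factors of edgeR (TMM), on the plain totals, the values fell to 0.10 for adult alpha and 0.16 for adult beta (adjusted p = 0.473 and 0.263), while the median of all genes moved from 0.00 to -0.47. Of the genes called, 65 of 74 were higher with TMM and 8 of 64 without.

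The class mixes stages. Subclusters with the highest score for the erythroblast markers Tfrc, Mki67, Top2a, Rhd, Epor and Car2 were set apart from those for the late markers, such as Bpgm and Alas2. Early markers (Gata2, Kit, Myb, Zfpm1, Car1 and Vamp5) were scored too, and no subcluster was named from them. The remaining subclusters were given no stage but stayed in all values of the whole class. They were led by endothelial genes (2083 cells, 76.7% globin), neutrophil genes (777 cells, 56.7%), B-cell genes (283 cells, 41.0%) and mitochondrial genes (633 cells, 78.85%). Those led by endothelial, neutrophil and B-cell genes scored highest for the early markers. The part of the subclusters without a stage in the values of the whole class was not tested. Erythroblasts numbered 52 to 82 per control mouse and 102 to 474 per anemic mouse, and late cells 137 to 2046 and 1328 to 4511. Erythroblasts were 9.60% ± 7.98 (SD) of erythroid-like cells in control and 6.19% ± 3.71 in anemic mice (exact two-sided Mann-Whitney p = 0.485, n = 6 each), and late cells 78.6% ± 8.34 and 80.5% ± 6.01 (exact p = 0.699). Control 3, the lowest mouse for each adult gene in the whole class, had the highest erythroblast share, 24.5%. The leading genes of several late subclusters were hepatocyte genes, so the late stage is named from its markers and not from its leading genes.

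The erythroblast stage joined unlike subclusters: 1190 cells with 10.98% globin and 522 cells with 46.55%. Their median cells held 2477 and 691.5 non-globin UMIs. The larger subcluster scored 1.64 for the early and 1.88 for the erythroblast markers, and the smaller 0.381 and 1.46. The mix of these subclusters per mouse, and its part in the erythroblast values and ratios, was not tested. Of the erythroid-like clusters, the one with 13.5% globin (1781 cells) had 21.1% of its cells called doublets. The others, with 84.0% to 86.1% globin, had 1.45% to 3.28%. Called doublets stayed in all stage values, and the stages were not read without them. Over all erythroblasts of a mouse, globin RNA was a minor share. It was 7.11% of UMIs in the lowest control mouse, 10.7% in the median and 13.8% in the highest, and 9.99%, 14.9% and 18.5% in anemic mice. The groups overlapped. In late cells the share was 83.8%, 85.5% and 87.6% in control and 86.5%, 86.9% and 88.2% in anemic mice, so that the late cells of every mouse held little other RNA. Per cell, erythroblasts held 248 to 505 globin UMIs in control and 575 to 896 in anemic mice, with no overlap, and 2922 ± 571 against 4182 ± 677 non-globin UMIs (SD, n = 6 each). Late cells held 812 to 1103 globin UMIs in control and 1046 to 1697 in anemic mice, with overlap, and 159 ± 10.1 against 195 ± 28.3 non-globin UMIs. UMIs per cell also follow how much RNA was captured, and these counts were chosen for description after they were seen and are given without a test.

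**Figure D2:**
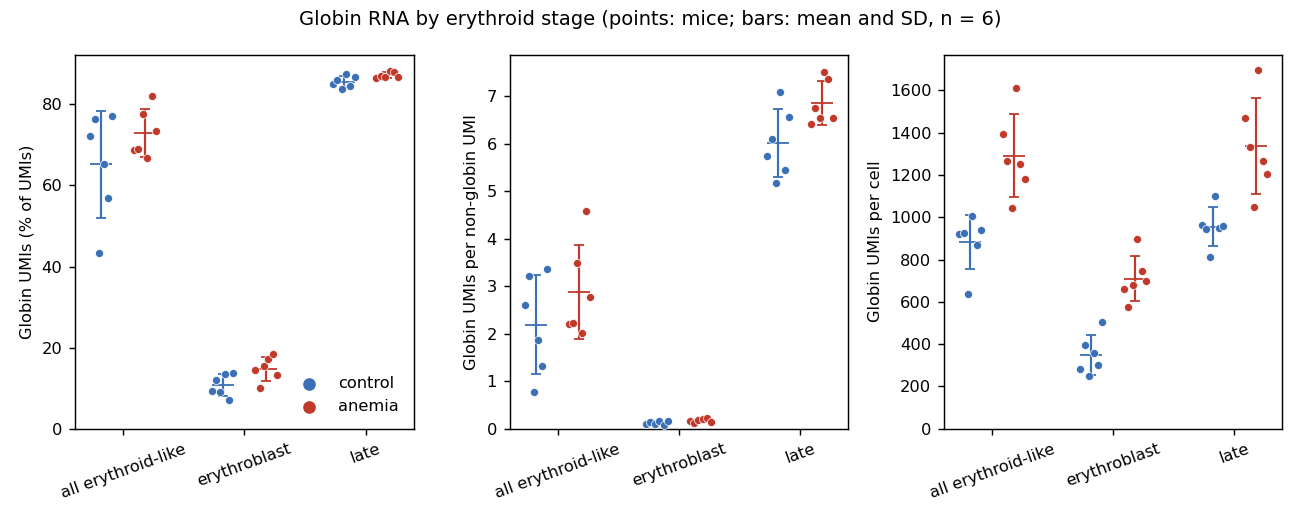
Globin share of UMIs (percent), globin UMIs per non-globin UMI and globin UMIs per cell in all erythroid-like cells, erythroblasts and late cells. Points are mice and bars the mean and SD of 6. The late shares lie between 83.8% and 88.2% in every mouse, while UMIs per erythroblast separate the groups.

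In erythroblasts 0 of the 4 adult genes passed edgeR's test, where 0.957% of 7628 genes did. All 4 had an unadjusted p under 0.05, as did 791 of the 7628 genes. Hbb-bt was closest, at a log2 fold change of 0.60 (SE 0.16, adjusted p = 0.0656), and the other 3 had 0.48 to 0.51 (adjusted p = 0.177 to 0.283). Adult alpha had 0.49 (SE 0.16, adjusted p = 0.184) and adult beta 0.52 (SE 0.17, adjusted p = 0.176). Hbb-bt passed without TMM (0.51, adjusted p = 0.0410). There the median of all genes moved from -0.00 to -0.10, and the genes called higher from 33 of 73 to 26 of 104.

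In late cells both adult beta genes rose with TMM and neither adult alpha gene passed. Hbb-bt had a log2 fold change of 0.60 (SE 0.16, adjusted p = 0.0201) and Hbb-bs 0.54 (SE 0.17, adjusted p = 0.0461), so that 2 of 4 passed where 7.47% of 3909 genes were called higher and 10.4% in either direction. Hba-a1 had 0.50 (SE 0.17, adjusted p = 0.0587) and Hba-a2 0.46 (SE 0.17, adjusted p = 0.0809). Adult beta rose (0.54, SE 0.17, adjusted p = 0.0466) and adult alpha had 0.48 (SE 0.17, adjusted p = 0.0734). Without TMM the values were 0.09 for Hbb-bt, 0.04 for Hbb-bs, -0.00 for Hba-a1 and -0.04 for Hba-a2 (adjusted p = 0.154, 0.131, 0.918 and 0.213), none passed, and both alpha genes changed sign. The median of all genes moved from -0.03 to -0.45, and genes called higher from 292 of 406 to 95 of 646, of all tested 2.43%. The fold changes with TMM thus describe globins relative to the other genes of the cell, and those without TMM the share of all UMIs.

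RNA of hepatocyte genes in late cells moved with the groups. The 5 hepatocyte markers (Alb, Apoa1, Ttr, Serpina1c and Ahsg) summed to 3.18% to 4.37% of non-globin UMIs in control and 0.380% to 2.17% in anemic late cells, with no overlap. In erythroblasts they summed to 0.232% to 0.316% and 0.0257% to 0.147%, also with no overlap. All 5 were detected in both stages. The 12 erythroid markers summed to 4.54% to 5.60% of non-globin UMIs in control and 5.96% to 7.34% in anemic late cells. The part of these values in the fold changes was not tested.

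**Figure D3:**
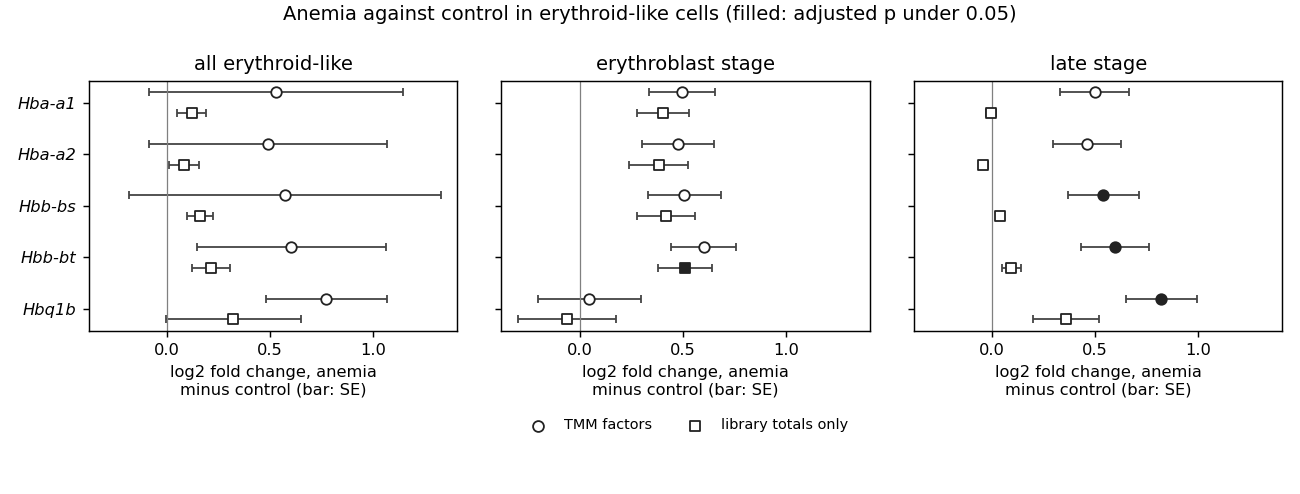
Log2 fold changes of Hba-a1, Hba-a2, Hbb-bs, Hbb-bt and Hbq1b, anemia minus control, with TMM and without it, in all erythroid-like cells, erythroblasts and late cells (bars: SE derived from the F statistic, filled points: adjusted p under 0.05). The late values of the adult genes lie between 0.46 and 0.60 with TMM and between -0.04 and 0.09 without.

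On the CPM scale the step from erythroblasts to late cells was smaller in anemic than in control mice. Adult alpha was 2.77 ± 0.332 log2 units higher in late cells than in erythroblasts of the same control mouse, and 2.31 ± 0.314 in anemic mice (SD, n = 6 each). The difference of -0.46 passed the exact two-sided Mann-Whitney test (adjusted p = 0.0354 over 7 quantities). For adult beta the steps were 3.21 ± 0.388 and 2.77 ± 0.308, and the difference was -0.43 (exact adjusted p = 0.0480). Hba-a1, Hbb-bs and Hbb-bt passed as well, at -0.45, -0.43 and -0.46, and Hba-a2 did not, at -0.46 (exact adjusted p = 0.0649). CPM in late cells is bounded above, and globins already took 83.8% or more of UMIs in every mouse. The test on this scale does not show that the stages responded differently, and the part of the bound in the difference was not tested. In the TMM fits the fold changes of the stages were 0.49 and 0.48 for adult alpha and 0.52 and 0.54 for adult beta. Read per non-globin UMI, the differences were -0.36 for adult alpha and -0.33 for adult beta and did not pass (exact adjusted p = 0.0720 and 0.0931). Leaving out single mice ended the call for adult alpha in 7 of 12 cases and for adult beta in 8 of 12.

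The balance of alpha to beta mRNA shifted slightly toward beta with anemia. Adult alpha UMIs per adult beta UMI in erythroid-like cells were 0.577 in the lowest control mouse, 0.590 in the median and 0.612 in the highest, and 0.545, 0.568 and 0.577 in anemic mice. The groups met at 0.577. The means were 0.591 ± 0.0123 and 0.566 ± 0.0119 (SD, n = 6 each), a log2 difference of -0.06 (exact two-sided Mann-Whitney p = 0.00433, adjusted p = 0.0260 over 6 ratios). The ratio needs no total and so does not turn on TMM. In late cells alone the difference was the same size (-0.06, exact adjusted p = 0.0260), and in erythroblasts it was -0.04 (exact adjusted p = 0.970). Leaving out 1 mouse gave an adjusted p of 0.0520 in 10 of 12 cases. Hba-a1 per Hba-a2 was 1.42 ± 0.0272 and 1.46 ± 0.0142 (exact adjusted p = 0.123), and Hbb-bs per Hbb-bt was 16.0 ± 1.08 and 15.5 ± 1.35 (exact adjusted p = 0.699).

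Between stages the ratios moved far more than between groups, and in the same direction in all 12 mice. Adult alpha per adult beta was 0.741 to 0.896 in erythroblasts and 0.538 to 0.597 in late cells. Hba-a1 per Hba-a2 was 1.91 to 2.33 in erythroblasts and 1.36 to 1.46 in late cells. Hbb-bt per Hbb-bs was 0.114 to 0.146 in erythroblasts and 0.0559 to 0.0681 in late cells. None of these ranges overlapped between the stages. The erythroblast value exceeded the late value of the same mouse by 0.45 ± 0.08, 0.56 ± 0.09 and 1.09 ± 0.11 on the log2 scale (SD, n = 12), in the order given. Both stages of a mouse share a library, and the values are a description. The sequence shared by Hba-a1 and Hba-a2 at the 3′ end bears on the level of their ratio. The part of shared sequence in the level of alpha per beta was not tested.

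**Figure D4:**
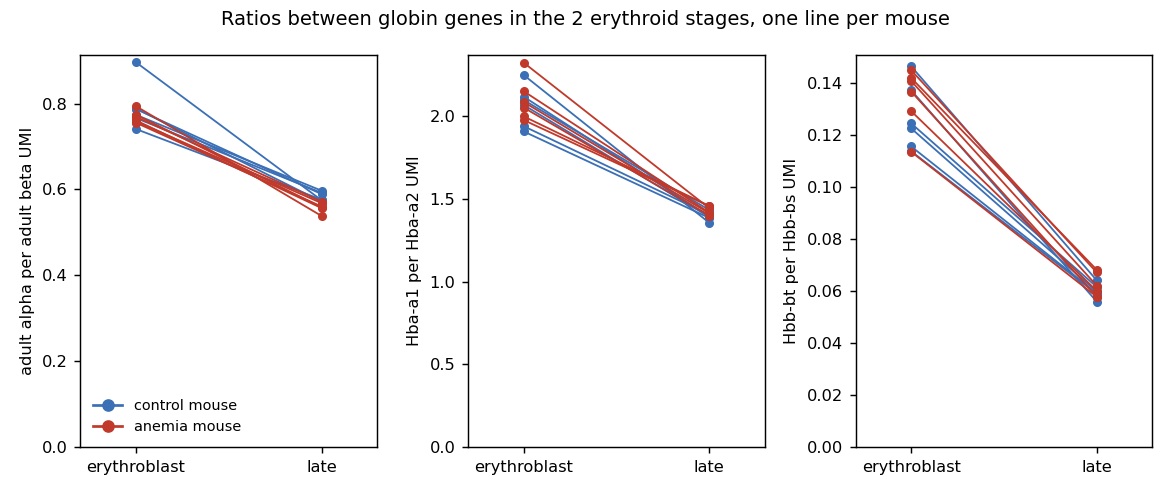
UMI ratios of adult alpha to adult beta, Hba-a1 to Hba-a2 and Hbb-bt to Hbb-bs in erythroblasts and late cells, with 1 line per mouse. Every line falls from erythroblasts to late cells, and alpha to beta goes from 0.741 to 0.896 down to 0.538 to 0.597.

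Other genes of the globin clusters were low. Hbq1b, a theta-like gene beside Hba-a1, had 4201 UMIs in erythroid-like cells, Hbq1a beside Hba-a2 had 460 and Hbb-bh2 had 2. Hbq1b had 17 to 216 UMIs per control mouse and 289 to 831 per anemic mouse. In late cells Hbq1b rose with TMM (log2 fold change 0.82, SE 0.17, edgeR adjusted p = 0.00304), and without TMM it did not pass (0.36, adjusted p = 0.123). Hbq1a did not pass with TMM (-0.33, adjusted p = 0.474) and fell by 0.79 on the log2 scale without it (adjusted p = 0.0497). Without TMM 551 of all 3909 genes tested in late cells were called lower. The promoters of the pair were not shown, since neither held any of the 4 motifs.

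Regulators of globin genes and partners of hemoglobin rose in part. The list held 26 genes of globin transcription, heme synthesis, mitochondrial transport and red cell metabolism, of which 25 were among the genes of the tables and Ahsp was not analysed here. In the erythroid-like class 3 of 24 tested were called higher and 0 lower, where 0.646% of all genes were called higher. These were Urod, an enzyme of heme synthesis (0.65, adjusted p = 0.0191), Cpox, the enzyme that follows it (0.75, adjusted p = 0.0150), and Bcl11a, a repressor of embryonic globin genes (0.86, adjusted p = 0.0409). The erythroid factors Klf1 and Gata1 had 0.36 (adjusted p = 0.416) and 0.25 (adjusted p = 0.554), and Alas2, the first enzyme of erythroid heme synthesis, had 0.65 (adjusted p = 0.547). The median over the list was 0.34, against 0.00 over all genes. Without TMM 0 of 24 passed in either direction, and the list median was -0.20 against -0.47. DESeq2 called 4 higher.

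Within erythroblasts Cpox alone rose (0.47, adjusted p = 0.0354), 1 of 24 where 0.433% of genes were called higher, and without TMM 0 passed. In late cells 8 of 19 tested were called higher and 0 lower, where 7.47% of all genes were called higher. Those of heme synthesis were Alas2 (0.62, adjusted p = 0.0127), Uros (1.203, adjusted p = 0.0113), Urod (0.76, adjusted p = 0.0169), Cpox (1.40, adjusted p = 3.75e-05), Ppox (1.21, adjusted p = 0.0222) and Fech (0.54, adjusted p = 0.0385). The other 2 were Nfe2, a factor that binds globin control regions (1.31, adjusted p = 0.0279), and Eif2ak1, the heme-regulated kinase that adjusts globin translation (1.03, adjusted p = 0.0346). Without TMM, where 2.43% of all genes were called higher, Cpox alone of the 19 stayed higher (0.91, adjusted p = 0.0114). The other 7 had values from 0.06 for Fech to 0.93 for Nfe2 and did not pass. Bpgm, which sets the level of the hemoglobin ligand bisphosphoglycerate, fell by 0.30 without TMM (adjusted p = 0.0265) and the heme-binding Hebp1 by 0.66 (adjusted p = 0.0324). These were 2 of 19 called lower, where 551 of all 3909 genes tested were called lower. With TMM Bpgm had 0.21 (adjusted p = 0.436) and Hebp1 -0.21 (adjusted p = 0.562).

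Genes whose level over the 12 erythroid-like sums was most like that of the globins were sought among 10057 genes. The levels were log2 CPM scaled by the TMM factors, not the plain CPM used above. For adult beta the genes were Alas2, Map1lc3b, Tent5c, Mkrn1 and Ube2l6, with Pearson correlations from 0.993 to 0.987. For adult alpha they were Tent5c, Alas2, Ube2l6, Map1lc3b and Ccndbp1, from 0.992 to 0.989. The sums hold all stages of a mouse, and each TMM factor is shared by all genes of a mouse. The part of the stage mix and of these factors in the correlations was not tested. The embryonic genes were too sparse for such a list.

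Globin RNA in the whole liver library was higher with anemia. The 7 genes made up 0.433% of all UMIs in the lowest control library, 1.79% in the median and 4.22% in the highest, and 3.50%, 9.37% and 14.2% in anemic libraries. Of the 6 anemic libraries 5 lay above every control library, and anemia 2 lay within the control range. The log2 difference was 2.31 (exact two-sided Mann-Whitney p = 0.00433, n = 6 each, where the smallest p the design allows is 0.00216). Erythroid-like cells were 1.52% to 13.1% of all cells in control and 9.20% to 29.1% in anemic mice (exact p = 0.00866), and held 69.5% to 82.4% and 80.1% to 87.0% of all globin UMIs (exact p = 0.0152). Globin UMIs per erythroid-like cell were 637 to 1008 in control and 1042 to 1614 in anemic mice, given without a test.

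Outside erythroid-like cells adult globin UMIs were found in each of the 13 other named classes, at levels far under the 43.4% to 82.1% of the erythroid-like class. By control medians the order, from the lowest, was cholangiocyte-like (0.0480% of the UMIs of the class), basophil or mast-like (0.0837%), stellate-like (0.167%), T-like (0.269%), macrophage-like (0.274%), B-like (0.284%), pre-B-like (0.341%), monocyte-like (0.415%), endothelial-like (0.424%), hepatocyte-like (0.497%), neutrophil-like (0.555%), dendritic-like (0.644%) and NK-like (0.792%). Control ranges of neighbours in this order overlapped throughout. Embryonic globins gave 4 UMIs in all these classes together. Cells of unnamed clusters, not among the 13 classes, had 0.219% to 1.15% globin in control and 0.744% to 6.07% in anemic mice, without a test.

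The globin share was higher in anemic mice in all 13 classes, and the difference passed the exact Mann-Whitney test in 12, with T-like cells as the exception (log2 difference 1.34, exact adjusted p = 0.0931). Set against the globin share of its own whole library, erythroid-like cells included, the share of a class was lower with anemia in 11 of 13 classes and higher in 2, as medians over mice and without a test. It went from 16.6% to 6.48% of the library level in B-like, from 16.1% to 9.94% in macrophage-like and from 49.6% to 43.9% in NK-like cells, and from 5.31% to 16.1% in basophil or mast-like and from 4.79% to 10.8% in cholangiocyte-like cells. On the share itself, the groups did not overlap in 4 classes: basophil or mast-like cells went from 0.0517% to 0.122% in control to 0.198% to 1.94% in anemic mice, stellate-like cells from 0.0940% to 0.375% to 0.571% to 1.22%, neutrophil-like cells from 0.125% to 1.14% to 1.46% to 2.56%, and dendritic-like cells from 0.160% to 1.35% to 1.41% to 4.58% (log2 differences 3.18, 2.31, 1.98 and 2.09, exact adjusted p = 0.00703 each). B-like cells had 0.135% to 0.588% and 0.530% to 0.845% (log2 difference 1.13, exact adjusted p = 0.0164), and hepatocyte-like cells 0.223% to 1.37% and 0.823% to 4.44% (2.01, exact adjusted p = 0.00804). Basophil or mast-like and cholangiocyte-like cells were few, 28 to 95 and 31 to 86 per mouse. Of these cells 48.4% and 72.4% were called doublets, and in the stellate-like clusters 55.3% and 47.4%.

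The same rise was read gene by gene. In edgeR fits within each class Hbb-bs, Hba-a1 and Hba-a2 were called higher in 7 of 13 classes and Hbb-bt in 10 of 13, with none lower. Over all genes tested in a class, the share called higher was 22.9% in hepatocyte-like, 8.81% in stellate-like, 7.62% in endothelial-like, 1.57% in macrophage-like, 1.07% in B-like, 0.951% in dendritic-like, 0.638% in pre-B-like, 0.575% in NK-like, 0.464% in neutrophil-like, 0.229% in monocyte-like, 0.108% in T-like, 0.0837% in basophil or mast-like and 0.0299% in cholangiocyte-like cells. The log2 fold changes of the 4 genes lay between 0.96 and 3.73, all above 0. Their median over classes was 1.73 for Hbb-bs and 1.86 for Hbb-bt.

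With 500 UMIs drawn per cell, Hbb-bs was found in 22.5%, 29.9% and 43.5% of B-like cells in the lowest, median and highest control mouse and in 37.1%, 55.2% and 66.5% in anemic mice. In late erythroid-like cells the lowest share was 99.6%. Adult alpha per adult beta in the other classes, over the summed UMIs of a group, was 0.564 to 0.701, and Hba-a1 per Hba-a2 was 1.22 to 1.54. In 9 of 13 classes alpha per beta in control mice was above the highest erythroid-like control mouse (0.612), with 0.683 in monocyte-like and 0.678 in dendritic-like cells. Some of the globin UMIs sat in small clusters rather than in all cells. A dendritic-like cluster of 327 cells held 37.9% globin and 72.2% of its cells were called doublets, an endothelial-like cluster of 197 cells held 30.9% with 69.0% called, and an NK-like cluster of 260 cells held 36.1% with 78.8% called. Outside the named classes, an unnamed cluster of 202 cells held 86.0% globin with 1.98% called. Another unnamed cluster, of 325 cells, held 74.3% with 56.6% called. Without called doublets the difference no longer passed in NK-like cells (log2 difference 1.46, exact adjusted p = 0.220) or monocyte-like cells (0.80, exact adjusted p = 0.394). Read as the median over cells, the share was 0.0387% to 0.0958% in control and 0.114% to 0.259% in anemic mice, as medians over mice, and the difference passed in all 13 classes.

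**Figure D5:**
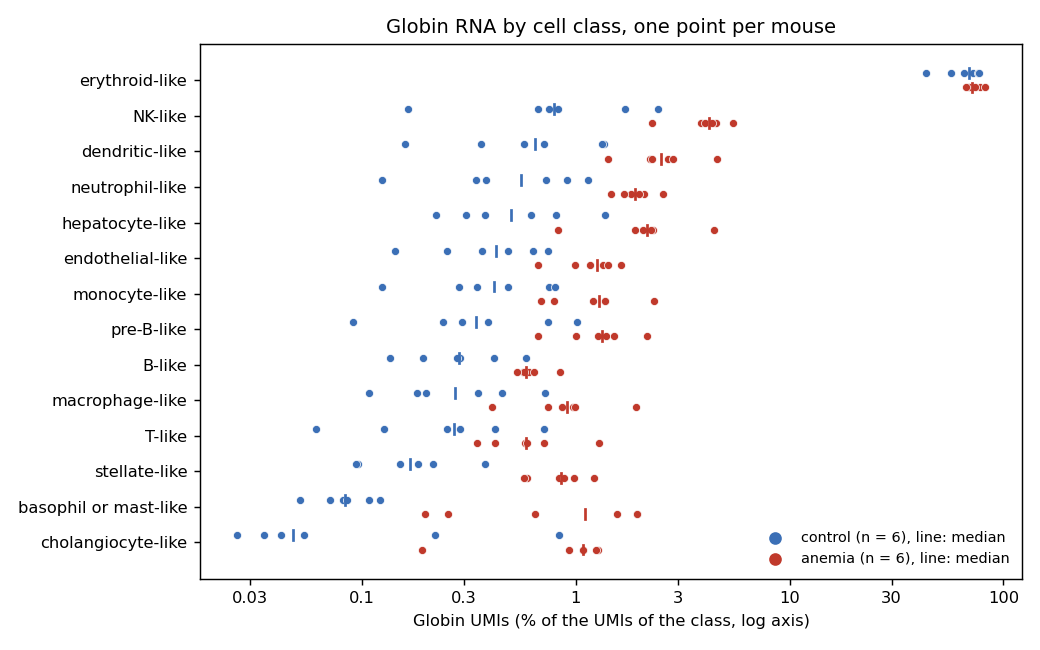
Globin UMIs as a percentage of the UMIs of each cell class on a log axis, with 1 point per mouse, control and anemia. Erythroid-like cells lie between 43.4% and 82.1%, the other named classes at 5.42% or less, with anemic points higher in each class on average.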

How the data were processed

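Single-cell RNA of 12 neonatal mouse livers (6 control, 6 anemia, 1 library per mouse) was analysed from counts of UMIs per gene and barcode, deposited by the authors. Per the labels the authors used Cell Ranger (7.0.0 in the file headers) with mm10 and Seurat. The barcodes had been filtered before deposit. Groups and replicate numbers came from the labels. The 7 genes and all gene lists were chosen with earlier results of these data known.

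Barcodes were kept where they held 500 to 50000 UMIs, of which mitochondrial genes gave 50% or less (206146 of 207537). Cells were clustered in scanpy 1.11.5 without 10 globin genes (2000 variable genes, 20 principal components, 20 neighbours, Leiden resolution 2), and clusters were named from markers, with the naming rule set after clusters were seen. Called doublets (a rate of 0.8% per 1000 barcodes) were kept and left out in an alternative. UMIs were summed per mouse and class or stage. Sums were tested with edgeR 4.0.16 (quasi-likelihood, TMM; mean of at least 5 UMIs per mouse; no mitochondrial or ribosomal protein genes) with Benjamini-Hochberg adjustment over all genes tested, and DESeq2 1.42.0 and limma 3.58.1 (voom) were alternatives. Ratios and shares were tested with exact two-sided Mann-Whitney tests in scipy 1.17.1. Classes with fewer than 20 cells in a mouse were not tested in that mouse. Intervals are exact binomial (95%) and cover counting error only. On simulated sums of 10064 erythroid-like genes the edgeR script recovered 80 of 100 genes changed by a log2 of 2 and 35 of 100 changed by 1, with 5 false calls.

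Named were the 7 genes, their adult sums, other genes of the clusters, a list of 26 regulators and partners (those called, and Klf1, Gata1, Bcl11a and Alas2 in any case) and the 5 genes of most similar level. Replicate numbers did not pair the mice (correlation of deviations -0.168 to 0.209). Promoters came from RefSeq for 6 of the 7 genes, and gene positions from GENCODE on GRCm38.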

Additional observations from a re-analysis of the deposited data

Results flagged for a closer look

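With about 1 in 20 groups expected to be flagged by chance, single mice stood far from the rest of their group in 8 values. The number of groups screened is not given here, so the flags cannot be set against the number expected. In erythroid-like cells control 3, with 24.5% erythroblasts, had the lowest Hbb-bs per Hbb-bt (13.99, where the next control mouse had 15.99, and 15.6 in its late cells alone). Anemia 6 had the highest Hbb-y level (2.21 CPM, of which 11 of 14 UMIs lay in a single cell), anemia 4 the highest Hbb-bh1 level (2.39 CPM, of which 23 of 24 UMIs lay in a single cell), and control 1 was the only control mouse with Hbb-bh1 (0.795 CPM, from 1 UMI). In erythroblasts control 5 had the highest adult alpha per adult beta (0.896, next 0.788). In B-like cells anemia 5 had the highest globin share (0.845%, next 0.640%). In cholangiocyte-like cells, of which each mouse had 31 to 86 and 72.4% were called doublets, control 6 had the highest control share (0.840%, next 0.219%). Anemia 3 had the lowest anemic share in this class (0.191%, next 0.928%).

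The step from erythroblasts to late cells differed between groups by an exact Mann-Whitney test of each mouse's late minus erythroblast level, anemia minus control: -0.45 for Hba-a1, -0.43 for Hbb-bs, -0.46 for Hbb-bt, -0.46 for adult alpha, -0.43 for adult beta and -0.44 for all 7 genes together, on the log2 CPM scale. In late cells the globin share was 83.8% or more in every mouse, which bounds how far CPM can rise. The TMM fits gave 0.49 and 0.48 (adult alpha) and 0.52 and 0.54 (adult beta) in erythroblasts and late cells. Per non-globin UMI the differences were -0.36 for adult alpha and -0.33 for adult beta (exact Mann-Whitney adjusted p = 0.0720 and 0.0931). No difference in response is thus shown, and the part of the bound was not tested. Leaving out single mice ended these calls in 7 or 8 of 12 cases.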

How the results depend on the processing

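The lack of a call for adult alpha and adult beta in the whole erythroid-like class held under every alternative run, single mice left out included, with log2 fold changes from 0.10 to 0.77. With sex, read per mouse from Xist and Y-linked genes, as a covariate, adult alpha had 0.235 and adult beta 0.287 (edgeR adjusted p = 0.926 and 0.915). That fit called 111 genes, 65 higher and 46 lower. The number of mice of each sex per group is not given here, and the part of sex was not tested. Replicate numbers did not pair the mice, and 1 of 6 numbers had its own number as best match. With the number as a block 20 genes were called in the class in place of 74 (adult alpha 0.59, adult beta 0.65), adult beta in late cells no longer passed (0.58, adjusted p = 0.0891) and Hbb-bt in erythroblasts did (0.62, adjusted p = 0.0370). The block, the totals and the ratios within each stage, and the leave-one-out values of the stage difference, were added after seeing the data. In late cells adult beta also lost its call on plain totals (0.0424, adjusted p = 0.138) and with factors and totals free of globin UMIs (0.54, adjusted p = 0.0520). The difference between stages lost its call per non-globin UMI (-0.36 for adult alpha, -0.33 for adult beta). The alpha to beta ratio lost its call in the whole library (-0.0639, adjusted p = 0.0779) and in erythroblasts alone (-0.0410, adjusted p = 0.970).

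Leaving out 1 mouse at a time gave adult beta in late cells 0.47 to 0.68 (lost without controls 1, 5 or 6 or anemia 2, 3, 4, 5 or 6), adult alpha in late cells 0.41 to 0.61 (passing without control 3 or control 4), adult alpha in erythroblasts 0.40 to 0.59 and adult beta there 0.41 to 0.63 (both passing without anemia 2). The alpha to beta ratio ranged from -0.0678 to -0.0503 (called only without control 1 or anemia 3), the stage difference from -0.57 to -0.37 for adult alpha (lost without controls 1, 3 or 5 or anemia 1, 3, 4 or 5) and from -0.54 to -0.31 for adult beta (lost without these or control 2), and the Hbb-bh1 to adult beta ratio, as a difference of medians per 1000000 adult UMIs, from 0.664 to 0.738 (passing without control 1). Without control 1, every control mouse left held no Hbb-bh1 UMI in erythroid-like cells. Fewer erythroid-like UMIs were read in each control mouse than in any anemic mouse, and the part of depth in that pass was not tested. The T-like globin share ranged from 0.96 to 1.66 (passing without control 6).

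Globin shares in T-like cells passed with the exact permutation test (1.34), without cells holding an erythroid marker UMI (0.94), with globins in the clustering (1.86), with at most 10% mitochondrial UMIs (1.36) and as the median over cells (1.07), where basophil or mast-like cells gave no log2 value because a control median was 0. Those in monocyte-like cells were lost without cells holding an erythroid marker UMI (0.82) and without doublets (0.80), in NK-like cells without doublets (1.46) and in dendritic-like cells at Leiden resolution 1 (1.12). Genes called in the class were 173 with DESeq2, 157 with limma voom, 191 with no filter, 49 with a mean of at least 50 UMIs, 44 with globins in the clustering and 19 to 103 without single mice (under 50 without controls 1, 4, 5 or 6 or anemia 1). In erythroblasts they were 46 to 91 (73 with all mice, 46 without control 4), and in late cells 260 to 519 (406 with all mice, 260 without control 6) and 646 on plain totals. The causes were not tested. Depth limited the embryonic genes, with 11 to 62 UMIs each in all libraries.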
